A study of Mus musculus with 2 samples.

Results

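Intrinsic apoptosis and p53 control genes were read in polyadenylated RNA of the mouse embryonic midbrain at 12.5 days of gestation. The set holds 35 genes, chosen by symbol among the 55536 genes of the GENCODE M21 annotation. All 35 were found and all are protein-coding. The series holds 2 libraries of 1 group. Replicate 1 came from the pooled midbrains of 120 embryos and replicate 2 from 88, both of strain B6NCrl, mixed in sex and without any treatment or engineered allele named in the labels. Libraries were made with an oligo-dT primer, an input of 10 ng of RNA, cutting by transposase and added ERCC control RNAs. The design holds no contrast of conditions, so genes were compared with each other within each library, the pools with each other, and the deposited quantifications with each other. With 1 library for each pool no test was possible. A difference between pools is given with a counting interval that covers counting error only, and it compares these 2 libraries.

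In intrinsic apoptosis, BH3-only proteins sense damage or loss of survival signals and release the pore formers BAX and BAK from restraint by BCL2-type survival proteins. The pores let cytochrome c out of mitochondria, APAF1 then assembles the apoptosome that activates caspase-9, and inhibitor of apoptosis proteins hold caspases back until mitochondrial antagonists such as DIABLO remove them. The transcription factor p53 feeds the pathway by inducing BH3-only genes, and MDM2 and MDM4 keep p53 low. In the developing brain the pathway removes surplus or damaged progenitors and young neurons, and mouse embryos without Apaf1, Casp9 or Bcl2l1 are known for too little or too much neural cell death.

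Levels are given as TPM, transcript abundance corrected for length and scaled to a fixed total in each library, so that genes can be compared. A gene counted as detected at 1 TPM or more in both libraries. By that limit 31 of the 35 members were detected, beside 59.4% of all protein-coding genes. The exceptions were Hrk, Casp1, Casp12 and Trp73. The median member stood at 20.1 ± 0.735 TPM (SD, n = 2, as for every ± on a level below), against 4.47 ± 0.180 for all protein-coding genes. In all, 25 members lay above the median of protein-coding genes and 16 in their upper 25%.

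Marker genes were read beside the tissue label. The lists held no markers of neighbouring brain regions, so detection does not tell midbrain from those regions. All 8 midbrain markers were detected, from Otx2 at 143 TPM to En2 at 1.39, as were all 8 markers of neural progenitors and all 8 of postmitotic neurons. Of markers of other cells, 9 of 9 erythroid, 8 of 8 mesenchymal and 8 of 8 endothelial ones were detected. So were 7 of 8 microglial and 6 of 8 surface epithelial ones, beside 59.4% of all protein-coding genes. The epithelial markers reached at most 5.625 TPM, so the presence of that cell type is not settled. In such bulk RNA a smaller number of cells of a type and less RNA per cell cannot be told apart. Expected counts, the estimated reads of each gene, summed to 29056772 and 37122519 over annotated genes. The lowest members rested on few reads. Casp12 had 4 and 2 counts, near the 3 counts that a count of 0 still allows, Casp1 had 17 and 18, and Hrk had 18 and 32.

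**Figure D1:**
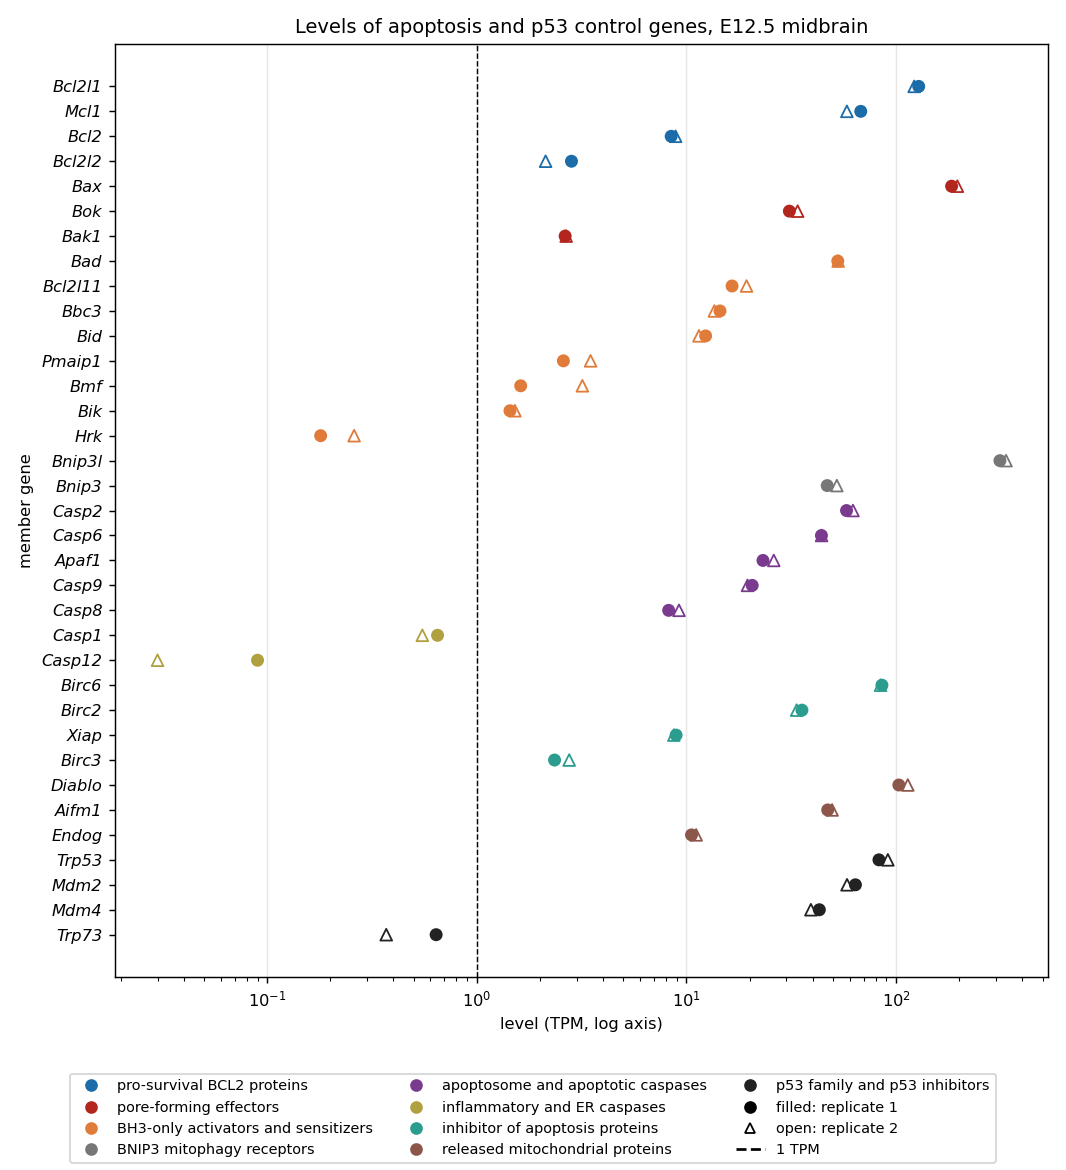
Level of each of the 35 members in TPM on a log axis, grouped and coloured by role, with filled circles for replicate 1 and open triangles for replicate 2; the dashed line marks 1 TPM. Bnip3l and Bax are the highest members, and Hrk, Casp1, Casp12 and Trp73 lie left of the line.

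Among the 4 pro-survival BCL2 genes, Bcl2l1 and Mcl1 made up nearly all of the RNA and Bcl2 itself little. Bcl2l1 (ENSMUSG00000007659.18, mm10 chromosome 2, 152780668 to 152831728, minus strand) encodes BCL-xL, which immature neurons and erythroid cells of the embryo need to survive. It stood at 128 TPM in replicate 1 and 122 in replicate 2. Mcl1, whose short-lived product protects neural progenitors, stood at 67.9 and 58.3. Both were far above Bcl2, the founding member of the family, at 8.46 and 8.88. Bcl2l2, which encodes BCL-w, was lowest of the 4 at 2.83 and 2.13. The order was the same in both libraries, and no level of one gene overlapped that of its neighbour. Bcl2l1 was 14.5 ± 1.00 times Bcl2 and 1.99 ± 0.144 times Mcl1.

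The pore formers were led by Bax (ENSMUSG00000003873.11, chromosome 7, 45461697 to 45466898, minus strand), which is required for most developmental death of neurons. Bax stood at 184 TPM in replicate 1 and 196 in replicate 2, second among all members. Bak1 (ENSMUSG00000057789.14, chromosome 17, 27019810 to 27029009, minus strand), which can stand in for Bax in many tissues, was at 2.64 and 2.67. Bax was thus 71.6 ± 2.63 times Bak1 by gene level. By protein-coding transcripts alone Bak1 stood at only 0.66 and 0.36 TPM, values that rest on few reads. On these low values Bax was 275 times Bak1 in replicate 1 and 534 times in replicate 2. Bok, a related pore former whose protein is kept low by degradation, lay between them at 31.0 and 33.9, with no overlap among the 3 genes.

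The 8 BH3-only genes spanned a wide range, and 7 were detected. Bad, whose product binds BCL-xL and is switched by phosphorylation, was the highest at 52.73 and 52.96 TPM. Next came Bcl2l11, which encodes BIM, the BH3-only protein that follows loss of growth factors, at 16.5 and 19.4. The p53-induced gene Bbc3, which encodes PUMA, stood at 14.5 and 13.6, and Bid, cleaved by caspase-8 to link death receptors with mitochondria, at 12.4 and 11.5. By gene level these 3 followed each other in the same order in both libraries. By protein-coding transcripts Bbc3 stood at 10.3 and 7.82 and Bid at 8.29 and 8.59, so Bid was the higher of the pair in replicate 2. A lower tier held Pmaip1, which encodes NOXA and is also a p53 target, at 2.59 and 3.49, Bmf, tied to the cytoskeleton and cell detachment, at 1.62 and 3.19, and Bik, an endoplasmic reticulum protein, at 1.44 and 1.52. Hrk, known from neurons deprived of growth factor, was under the limit at 0.18 and 0.26. Pmaip1, Bmf and Bik kept this order in each library, but the ranges of Pmaip1 and Bmf over the libraries overlapped.

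Over the 15 genes of the BCL2 family in the set, pro-survival genes took 39.4% of the summed TPM in replicate 1 and 36.1% in replicate 2. Pore formers took 41.3% and 43.9%, and BH3-only genes 19.3% and 20.0%. Bax alone held 36.0% ± 1.47 and Bcl2l1 23.7% ± 0.927, followed by Mcl1 at 11.9% ± 1.33 and Bad at 10.0% ± 0.00736. Bax was 1.52 ± 0.122 times Bcl2l1, above it in both libraries. On these values 4 genes carried most of the family's RNA, 2 on the survival side and 2 on the death side. The pro-survival share of 37.7% ± 2.30 depended on the most abundant genes. It was 18.4% ± 2.02 without Bcl2l1 and 49.5% ± 1.73 without Mcl1 and Bax. Counted as reads instead of TPM, pro-survival genes held 58.9% ± 2.73, a scale on which long transcripts weigh more (3418 bases for Mcl1-201, 867 for Bax-201).

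**Figure D2:**
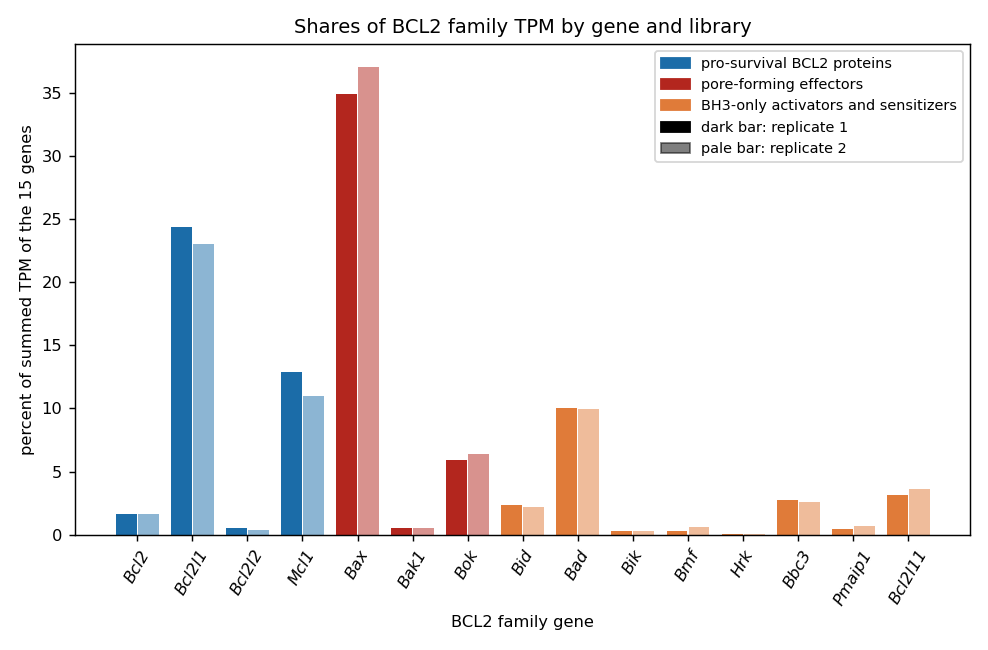
Percent of the summed TPM of 15 BCL2 family genes taken by each gene, with dark bars for replicate 1 and pale bars for replicate 2, coloured by role. Bax, Bcl2l1, Mcl1 and Bad stand above the others in both libraries.

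Downstream of the pore, every gene of the apoptosome and its caspases was detected. Apaf1 stood at 23.2 TPM in replicate 1 and 26.1 in replicate 2, and its partner Casp9 at 20.6 and 19.6. Casp2, the caspase of the PIDDosome that responds to extra centrosomes and DNA damage, was the highest of this group at 58.1 and 62.3. Casp6, an executioner known for cutting lamins and axonal proteins, followed at 44.1 in both. Casp8, the initiator below death receptors, was lowest at 8.23 and 9.22. The inflammatory Casp1 lay under the limit at 0.65 and 0.55, and the endoplasmic reticulum caspase Casp12 at 0.09 and 0.03.

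The inhibitor of apoptosis genes differed widely. Birc6, which encodes a giant ubiquitin-conjugating protein, was highest by gene level at 85.6 and 84.4 TPM. Birc2 stood at 35.6 and 33.6, 13.6 ± 2.10 times its neighbour and close relative Birc3 at 2.35 and 2.76; both encode ubiquitin ligases of TNF receptor signalling. Xiap, which encodes a direct inhibitor of caspases, was at 8.93 and 8.71. Diablo, which encodes the antagonist of these proteins, was at 103 and 114, or 12.3 ± 1.07 times Xiap by gene level and 23.1 ± 3.53 times by protein-coding transcripts. Of the other proteins released from mitochondria, the flavoprotein gene Aifm1 stood at 47.2 and 49.5 and the nuclease gene Endog at 10.6 and 11.1.

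Bnip3l and Bnip3 encode outer membrane receptors of mitophagy, and Bnip3l is known for clearing mitochondria from maturing red cells. Bnip3l (ENSMUSG00000022051.15, chromosome 14, 66985239 to 67008877, minus strand) had the highest gene level of all members at 313 and 335 TPM, 6.54 ± 0.179 times Bnip3 at 47.0 and 52.2. The 9 erythroid markers summed to 14921 TPM in replicate 1 and 17488 in replicate 2, and none was at 0. Their part in the level of Bnip3l was not tested.

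The p53 gene stood above its inhibitors. Trp53 (ENSMUSG00000059552.13, chromosome 11, 69580359 to 69591873, plus strand) stood at 82.9 TPM in replicate 1 and 91.4 in replicate 2. Mdm2, a ubiquitin ligase for p53 and itself a p53 target, was at 64.0 and 58.4. Mdm4, which blocks p53 without degrading it, was at 43.1 and 39.3. The order Trp53, Mdm2, Mdm4 held in both libraries, with Trp53 1.43 ± 0.191 times Mdm2 and Mdm2 1.49 ± 0.000339 times Mdm4. By protein-coding transcripts these folds were 1.91 ± 0.310 and 1.93 ± 0.0135. Trp73, a p53 relative made by few cell types of the brain, lay under the limit at 0.64 and 0.37. Its deposited bounds, 0.698 to 1.48 TPM in replicate 1 and 0.440 to 1.12 in replicate 2, include the limit. Its place under the limit is therefore not settled.

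Pro-survival and pro-death members were then compared as groups. The 8 pro-survival genes are the 4 of the BCL2 family and the 4 inhibitors of apoptosis. The 19 pro-death genes are the pore formers, the BH3-only genes, Apaf1, Casp2, Casp6, Casp8, Casp9, Diablo, Endog and Aifm1. All 8 pro-survival and 18 of the 19 pro-death genes were detected. The median pro-survival gene was at 22.3 TPM in replicate 1 and 21.2 in replicate 2, and the median pro-death gene at 16.5 and 19.4. On the scale of log2(TPM + 0.1) the pro-survival median exceeded the pro-death median by 0.11 in replicate 1, and the difference was -0.16 in replicate 2. The mean difference of -0.03 ± 0.19 is smaller than its spread between the libraries. Its direction turned by protein-coding transcripts, to 0.27 and 0.22, and without the inhibitors of apoptosis, to 0.54 and 0.23. In replicate 2 the difference of medians thus has another sign in TPM than in log2. The middle of the 8 pro-survival genes is a gap there, from Bcl2 at 8.88 to Birc2 at 33.6, and the median of an even number of genes lies in it. Within the BCL2 family alone, 4 genes against 11, the survival median was higher by 0.97 ± 0.02 on the log2 scale, although the death genes held the larger summed TPM.

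Several gene levels were carried by transcripts that the annotation does not class as protein-coding, and this changed what the highest members were. The 35 genes have 222 annotated transcripts. Protein-coding transcripts took at least 90% of the gene's TPM in 15 members, between 50% and 90% in 16, and under 50% in 4: Bnip3l, Bak1, Birc6 and Xiap. The median member had 87.6% in coding transcripts, and 30 members were at 1 TPM or more by coding transcripts in both libraries. The most abundant transcript by mean TPM was not coding in 6 members, which adds Apaf1 and Casp12 to those 4.

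Bnip3l was the largest case. Its coding transcript Bnip3l-201 stood at 53.4 and 50.7 TPM, 17.1% and 15.2% of the gene. Bnip3l-205, a processed transcript of 789 bases, was at 131 and 145 TPM, and Bnip3l-204, of 354 bases, at 127 and 137. Of the 789 bases of Bnip3l-205, 300 lie in coding sequence and 457 in untranslated sequence of coding transcripts, and of the 354 bases of Bnip3l-204, 333 lie in coding sequence. By coding transcripts Bnip3l, at 52.1 ± 1.90, was close to Bnip3 at 48.2 ± 2.61, and Bax became the highest member at 187 ± 7.69.

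Birc6 showed the same layout. Birc6-206, of 1030 bases and classed as a retained intron, was at 44.0 and 42.9 TPM, 51.4% and 50.8% of the gene, and 312 of its bases lie in coding and 689 in untranslated sequence. Birc6-202, with a reading frame of 4873 codons, was at 7.27 and 6.96, and the 5 transcripts with long frames of 4853 to 4882 codons summed to 12.7 and 12.1. All coding transcripts of Birc6 summed to 21.8 ± 0.757 TPM, so that Birc2 exceeded it by coding transcripts at 24.7 ± 1.22. Xiap-207, a processed transcript, held 38.5% and 43.1% of Xiap, and the coding transcripts of Xiap summed to 4.21 ± 0.346. In Apaf1, Apaf1-204 is a processed transcript of 511 bases, 402 of them in untranslated sequence, at 7.90 and 10.0 TPM, beside 14.6 and 15.4 for the coding transcripts. What part of the reads on such short transcripts came from the coding RNA that overlaps them was not tested.

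**Figure D3:**
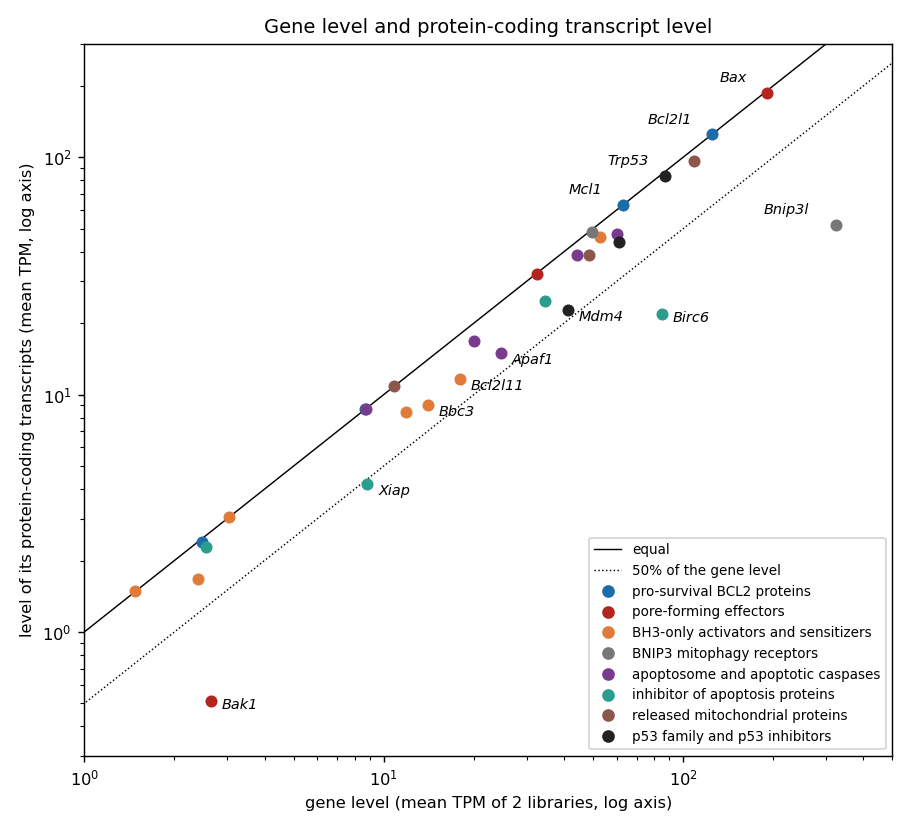
Mean level of the protein-coding transcripts of each detected member against its gene level, both in TPM on log axes, coloured by role; the solid line marks equality and the dotted line 50%. Bnip3l, Birc6, Bak1 and Xiap lie under the dotted line, and Bax, Bcl2l1 and Mcl1 near the solid one.

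In Bak1 most of the RNA was assigned to transcripts marked for nonsense-mediated decay, in which the reading frame ends early. Their sequences are shown because, within the span they share with the coding transcript Bak1-202, they differ from it by a few bases. Bak1-202 also starts further upstream and is longer, with 2387 bases against 1974 for Bak1-201 and 1958 for Bak1-204. Bak1-201 holds an additional exon of 20 bases (capitals; chromosome 17, 27021663 to 27021682, minus strand), a microexon known to be included in neurons, where it lowers BAK protein. Bak1-204 lacks 5 bases (capitals in the second line for Bak1-202; 27022873 to 27022877) at the start of an exon. Windows are spliced, 5′ to 3′, with 20 shared bases on either side, in GENCODE M21 transcripts.
Bak1-201, with the 20-base exon: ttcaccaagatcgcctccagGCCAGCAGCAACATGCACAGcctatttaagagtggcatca
Bak1-202, without it: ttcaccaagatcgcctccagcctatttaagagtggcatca
Bak1-202, with the 5 bases: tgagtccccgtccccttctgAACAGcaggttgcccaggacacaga
Bak1-204, without them: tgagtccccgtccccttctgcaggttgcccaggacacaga

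Bak1-204 took 50.1% of Bak1 in replicate 1 and 40.5% in replicate 2, and Bak1-201 took 24.8% and 46.2%. The full coding transcript Bak1-202, with 209 codons, was at 0.51 TPM in replicate 1 and listed at 0 in replicate 2. All coding transcripts summed to 0.66 and 0.36 TPM, 25.1% and 13.4% of the gene, so Bak1 alone dropped under 1 TPM when only coding transcripts were counted. These shares rest on 93 and 109 expected counts for the gene. The deposited credibility bounds of Bak1-201 ran from 0.00124 to 1.26 TPM in replicate 1 and from 0.459 to 1.78 in replicate 2, so the order of the transcripts is not settled at this depth. Ggnbp1, on the opposite strand, shares 614 exon bases with Bak1 and stood at 2.61 and 3.14 TPM, and without a stated strand setting the reads of such partners cannot be told apart.

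Bcl2, Bcl2l1 and Bax each had another coding transcript whose coding end differs, and these sequences are shown because the change falls next to similar letters in the 3 related genes. In Bcl2 and Bcl2l1 the coding sequences of the pair are equal up to the 7 bases ggctggg, within the stretch that encodes the BH2 motif, and differ from there (capitals; at most 40 bases drawn). The windows of the shorter forms lie on the minus strands of chromosomes 1 (106712284 to 106712323, Bcl2-202) and 2 (152829386 to 152829445, Bcl2l1-205). Both lack the usual coding end, which in BCL2-type proteins holds the tail that anchors them in membranes. In Bax the difference is a gap of 4 bases at the start of the last exon (capitals; chromosome 7, 45461963 to 45461966, minus strand). Bax-205 carries the same bases after the gap, read in another frame, and its coding sequence ends earlier.
Bcl2-201, 236 codons: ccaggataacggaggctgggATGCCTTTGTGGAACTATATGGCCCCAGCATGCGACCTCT
Bcl2-202, 199 codons: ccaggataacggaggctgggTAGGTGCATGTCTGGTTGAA
Bcl2l1-201, 233 codons: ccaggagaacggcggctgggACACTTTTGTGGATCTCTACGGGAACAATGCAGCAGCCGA
Bcl2l1-205, 209 codons: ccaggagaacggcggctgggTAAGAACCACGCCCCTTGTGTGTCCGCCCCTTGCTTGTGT
Bax-201, 192 codons: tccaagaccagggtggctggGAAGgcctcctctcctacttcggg
Bax-205, 171 codons: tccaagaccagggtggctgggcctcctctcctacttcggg

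The shorter form shown was a sizeable part of Bcl2 and a smaller part of the other genes. In Bax and in Bcl2l1 a further coding transcript with a shortened reading frame, not shown, took more than the shorter form drawn. Bax-203, with 172 codons, took 13.9% of Bax in replicate 1 and 18.1% in replicate 2. Bcl2l1-203, with 188 codons, took 7.94% and 8.74% of Bcl2l1. Bcl2-202 took 33.4% of Bcl2 in replicate 1 and 43.1% in replicate 2, with bounds of 2.24 to 3.26 and 3.21 to 4.27 TPM. Bcl2l1-205 took 5.03% and 5.75%, while Bcl2l1-201 and Bcl2l1-202, which both hold 233 codons, summed to 102 and 95.2 TPM. Bax-205 took 9.92% and 9.53%, and the full-length Bax-201 took 74.3% and 70.5%. Bcl2l11-205, with 196 codons the longest reading frame of Bcl2l11, took 48.6% and 43.1% of its gene at 8.03 and 8.35 TPM.

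The transcript pairs shown for Trp53 and Trp73 differ at the start of the coding sequence. Trp53-201 and Trp53-203 share 1771 exon bases, and 1 base is in Trp53-201 alone, yet they are annotated with different start codons. Both transcripts therefore contain the 9 bases in capitals below, which count as coding in Trp53-203 only (chromosome 11, 69586891 to 69586919, plus strand, for the second line). Trp73-205 starts 43035 bases downstream of Trp73-204, inside the gene, and its 35 first coding bases after the start codon (capitals) replace 179 of Trp73-204, of which 40 are drawn. Such internally started forms lack the transactivating end and are known as deltaN forms. The window of Trp73-205 spans introns between 154081553 and 154096932 on the minus strand of chromosome 4.
Trp53-201, 387 codons: atggaggagtcacagtcgga
Trp53-203, 390 codons: ATGACTGCCatggaggagtcacagtcgga
Trp73-204, 638 codons: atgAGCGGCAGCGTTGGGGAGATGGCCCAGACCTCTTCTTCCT
Trp73-205, 590 codons: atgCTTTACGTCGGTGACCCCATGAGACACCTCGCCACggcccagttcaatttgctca

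Trp53-201 was listed at 58.7 TPM in replicate 1 and 41.4 in replicate 2, and Trp53-203 at 5.86 and 33.7. The bounds of Trp53-201 reached from 0.000521 to 51.4 TPM in replicate 1, and those of Trp53-203 from 8.44 to 62.3, so neither listed value of that library lay inside its own bounds. With 1 base to tell them apart the split is not a measurement of start codon use. Trp53-202, a coding transcript of 378 codons that is not shown, stood at 13.45 and 13.95 TPM. Its bounds ran from 8.56 to 16.2 in replicate 1 and from 9.46 to 16.6 in replicate 2. Together the coding transcripts of Trp53 summed to 78.0 and 89.1 TPM. In Trp73 the internally started Trp73-205 took 83.0% and 77.8% and Trp73-204 the rest, on 56 and 41 counts for the gene.

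Across members the most abundant transcript took a median of 69.7% ± 0.771 of the gene. The same transcript led in both libraries in 31 of 35 members, and Apaf1, Bak1, Bik and Casp12 were the exceptions. In Apaf1 the coding Apaf1-202 led in replicate 1 and Apaf1-204 in replicate 2.

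The members were then compared between the pools. A ratio was taken for the 34 members that reached 10 counts in either library. By the rule of a 2-fold ratio whose 95% counting interval leaves out equality, 0 of the 34 differed, beside 4.23% of all genes tested. With at least 50 counts in a library, 0 members and 1.37% of all genes differed. For so few members a count of 0 is near either share. At any size of difference, the interval lay on the side of replicate 1 for 8 members, against 15.5% of all genes, and on the side of replicate 2 for 6, against 16.7%. Scaled by TMM, which equalises the bulk of genes, those higher in replicate 1 were Bcl2l1, Mcl1, Bbc3, Birc2, Birc6, Trp73, Mdm2 and Mdm4, and those higher in replicate 2 were Bax, Bmf, Pmaip1, Casp2, Diablo and Trp53. Scaled by ERCC totals, which moved the median of all genes from -0.01 to -0.28 in log2, 0 members lay on the side of replicate 1 and 24 on that of replicate 2, so the 8 calls on the side of replicate 1 were not kept. Of those 8, Bcl2l1, Birc2, Birc6, Mdm2 and Mdm4 then lay on the side of replicate 2, Mcl1 (-0.02) and Bbc3 (-0.03) were close to equality, and Trp73 stayed at 0.54 with an interval of -0.06 to 1.16. With ERCC totals the median member was at -0.27, beside -0.28 for all genes. The share of all genes on each side was not computed for this scaling, so the 24 members cannot be set against it.

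Relative to other genes, 4 of the 8 pro-survival members were on the side of replicate 1 and 0 on that of replicate 2. Of the 19 pro-death members, 1 was on the side of replicate 1 and 5 on that of replicate 2. Over all genes tested the shares were 15.5% and 16.7%. With ERCC totals the counts were 0 and 5 for pro-survival and 0 and 14 for pro-death members, with no share of all genes to set beside them. The median log2 ratio of replicate 1 to replicate 2 was 0.10 for the pro-survival members, -0.07 for the pro-death members and -0.01 for all genes tested. The sizes were small. Mcl1 had a log2 ratio of 0.25 (95% interval 0.19 to 0.32), Bcl2l1 of 0.12 (0.07 to 0.17), Bax of -0.08 (-0.16 to -0.01) and Diablo of -0.13 (-0.20 to -0.07). Within the p53 genes Mdm2 was at 0.19 (0.12 to 0.26) and Trp53 at -0.16 (-0.23 to -0.09).

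The widest ratios among the members tested were those of Bmf and Trp73, both with low counts. Among other members with low counts, Bak1 (0.13) and Birc3 (0.01) lay nearer to equality in log2, and Hrk (-0.47) and Bik (-0.42) further from it. The intervals of Bak1, Birc3, Hrk and Bik include equality. Why the ratios of Bmf and Trp73 were wide was not tested. Bmf, with 114 counts in replicate 1 and 232 in replicate 2, had a log2 ratio of -0.66 (-0.998 to -0.33), and Trp73, with 56 and 41, of 0.81 (0.21 to 1.43). The deposited TPM bounds of both genes overlapped between the libraries, but the listed TPM of Trp73 lay outside its own bounds in both libraries and that of Bmf in replicate 1, where 1.62 TPM is listed with bounds of 1.83 to 4.21. Casp12, which was not tested, was outside its bounds in both libraries too. Bounds did not overlap between libraries in Mcl1, Diablo and Trp53 alone among the 35.

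Markers of the tissue and of other cell types differed between the pools as well. Over all genes tested, 15.5% had an interval on the side of replicate 1 and 16.7% on that of replicate 2. Of the 8 midbrain markers 5 had an interval on the side of replicate 2, among them En1 and En2 at -0.50 in log2 each, and Otx2 and Gata3 lay on the side of replicate 1. The 8 mesenchymal markers summed to 1017 TPM in replicate 1 and 1443 in replicate 2, and 7 of the 8 had an interval on the side of replicate 2. The 9 erythroid markers were on that side in 6 cases and the 8 endothelial markers, which summed to 114 and 129, in 6, with Kdr (0.13) on the side of replicate 1. The 8 microglial markers summed to 77.9 and 93.4 TPM, with 3 on the side of replicate 2, and the 8 epithelial markers to 23.3 and 29.7, with 5 and with Epcam (0.50) on the side of replicate 1. Markers of postmitotic neurons summed to 2171 and 2082, with 6 of 8 on the side of replicate 1, and those of progenitors to 2899 and 2917, with 4 on the side of replicate 1 and 2 on that of replicate 2. No list had a marker at 0 in both libraries. Their part in the differences of the members was not tested.

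**Figure D4:**
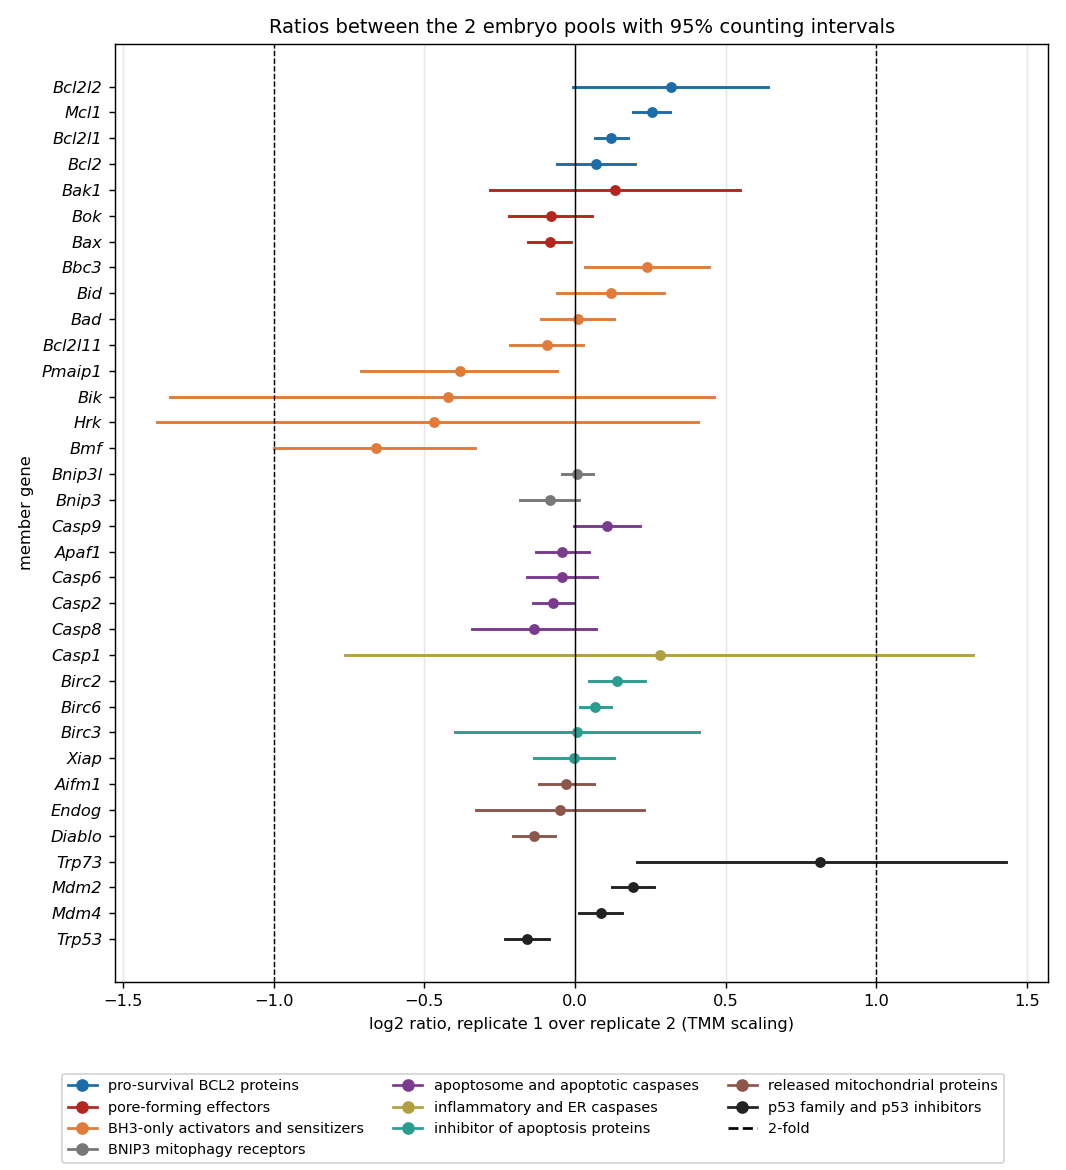
Log2 ratio of replicate 1 to replicate 2 for the 34 members tested, scaled by TMM, with horizontal bars for the 95% counting interval and colours for role; dashed lines mark 2-fold. Points lie within the dashed lines, and the intervals of Mcl1 and Bcl2l1 lie right of 0 while those of Bax and Diablo lie left of it.

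The members were also compared between the 2 annotations. Among the 31 members with 1 TPM or more in both libraries, 0 differed 2-fold between the M21 and M4 quantifications, beside 3.34% of all genes compared. For 31 genes a count of 0 is near that share. The most abundant transcript was the same under M21 and M4 in 34 of 35 members. Expected counts were whole numbers, within 0.01, in both libraries for 20 members and fractional in 15, as happens where a model divides reads between genes. Overlapping genes also bear on Bad, which shares 524 exon bases with Gpr137 at 29.2 and 29.6 TPM, on Bid, which shares 628 with Bcl2l13 at 36.1 and 35.8, and on Endog, which shares 379 with Spout1 at 46.1 and 50.2, each on the opposite strand.

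Other genes of the pathway were read from 6 lists of 69 genes. Of 20 p53 target genes 17 passed the limit, and the list's median was 11.8 ± 1.45 TPM. Btg2, a growth-arrest gene also made by neurogenic progenitors, was highest at 131 and 127 TPM. Gdf15 (0.13 and 0.03), Fas (0.50 and 0.64) and Eda2r (0.91 and 0.92) were under the limit. Between pools 3 of the 19 with enough counts were on the side of replicate 1, 3 on that of replicate 2, and 0 differed 2-fold. Over all genes tested these shares were 15.5%, 16.7% and 4.23%, and the counts of the lists below stand beside the same shares.

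Of 14 regulators upstream of p53 only Cdkn2a, whose locus encodes the MDM2 inhibitor ARF, was not detected, at 0 counts in both libraries. Rpl11, a ribosomal protein that binds MDM2 under nucleolar stress, was highest at 232 and 230 TPM, and Atm, the kinase of the DNA damage response, the lowest detected at 13.9 and 14.7. Between pools 2 of 13 were on the side of replicate 1 and 1 on that of replicate 2.

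Each of the 7 executioner, cytochrome c and nuclease genes passed the limit, from Dffb, a DNA-cutting nuclease of apoptosis, at 8.19 and 8.11 TPM to Parp1, a caspase substrate, at 168 and 172. Death receptor genes were lower. Their median was 8.70 ± 1.13 and 9 of 10 passed the limit. Dcc, a netrin receptor that can signal death without its ligand, was highest at 60.2 and 50.2, and Fas was the exception under the limit. In the first list 0 of 7 were on the side of replicate 1 and 1 on that of replicate 2, and in the second 2 and 3 of 10.

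Of 12 further genes of the BCL2 and inhibitor families only 3 were detected. Birc5, which encodes survivin and serves mainly in chromosome segregation, stood at 174 and 186 TPM. Bcl2l12 and Bcl2l13 were at 38.6 and 42.9 and at 36.1 and 35.8. Bcl2l10 and Bcl2a1d had 0 counts in both libraries. Naip2 was the 1 gene of the 69 that differed 2-fold, with 1 count in replicate 1 and 29 in replicate 2, a log2 ratio of -4.49 with a wide interval of -9.85 to -1.90. All 8 partners of BCL2 proteins at mitochondria were detected, from the calcium channel gene Itpr1 at 5.59 and 5.83 to the outer membrane channel gene Vdac3 at 289 and 302, with 2 on the side of replicate 1 and 2 on that of replicate 2.

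**Figure D5:**
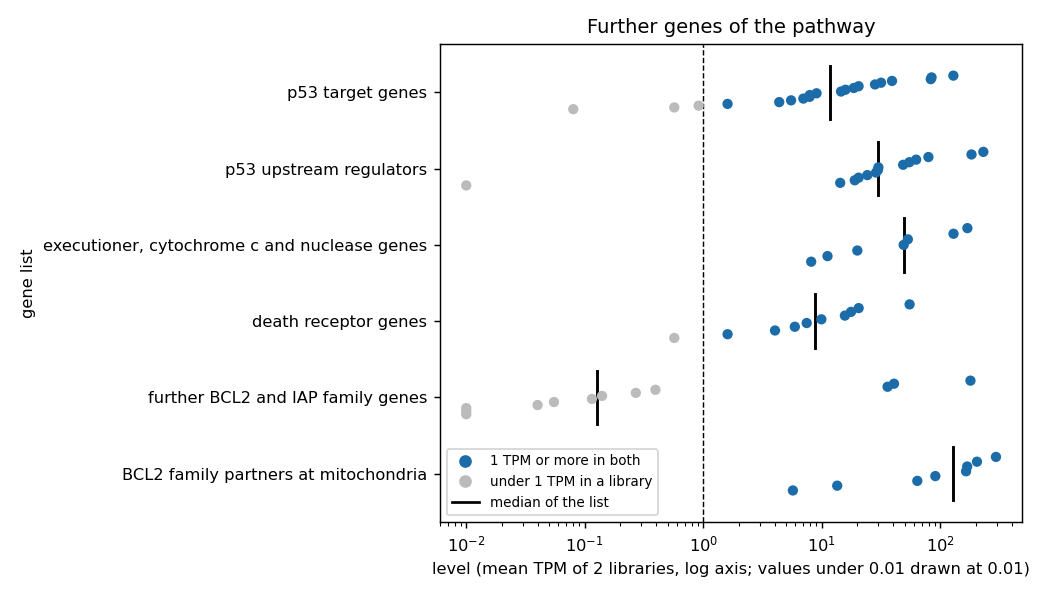
Mean level of 69 further genes of the pathway in TPM on a log axis, with 1 row of points for each of 6 lists, blue for genes at 1 TPM or more in both libraries, grey for the others, and a black bar for the list's median. The grey points lie mostly in the list of further BCL2 and inhibitor genes, whose median is under the dashed line at 1 TPM.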

How the data were processed

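The authors deposited, for each library, gene and transcript tables against 2 annotations (M21 and M4) of mm10. Per the file headers, each holds an expected count (estimated reads, not scaled), TPM (scaled to the same total over all rows, spike-ins included), FPKM (per effective length and fragments) and, per transcript, the percent of its gene's TPM. Deposited credibility bounds of TPM were used as listed. Their level, the aligner, the quantification tool and the strand in counting are not given in the sources used here. Columns are named as RSEM names them. Replicates are separate pools of embryos per the labels.

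TPM was used as deposited, from M21. Rows that name no gene, 4.02% and 3.38% of counts and nearly all ERCC, were left out of library sizes. Ratios used expected counts rounded to whole numbers, TMM scaling (edgeR 4.0.16, R 4.3.3) and exact conditional binomial 95% intervals, with at least 10 counts in a library; without molecular identifiers these cover counting error only. A count of 0 was taken as up to 3. The code for ratios was also tested on simulated data. Members matched by GENCODE M21 symbol. Coding transcripts are those of biotype protein_coding, and sequences come from the GENCODE M21 transcripts (GRCm38). Levels compared as log2 used a pseudocount of 0.1 TPM. Members are named by role, and of the other lists the highest, the lowest, those under the limit where 5 or fewer, and any 2-fold gene; Atm, Bcl2l12 and Bcl2l13 were chosen after their values were seen. The members and lists were chosen with earlier results of these data known.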

Additional observations from a re-analysis of the deposited data

How the results depend on the processing

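Alternatives with protein-coding transcripts alone or without Bcl2l1 were chosen after seeing the data; the others were planned. The number of detected members ranged from 29 at 2 TPM to 32 at 0.5 TPM, was 30 by coding transcripts and 31 without either replicate. The pro-survival share of BCL2 family TPM, 37.7%, moved to 58.9% with expected counts, 49.5% without Mcl1 and Bax and 18.4% without Bcl2l1. It was 39.7% by coding transcripts and between 36.1% and 39.4% with 1 library left out. The log2 difference of pro-survival and pro-death medians, -0.03, changed sign to 0.97 within the BCL2 family, 0.39 without the inhibitors of apoptosis and 0.24 by coding transcripts. With 1 library left out it ran from -0.16 to 0.11; without replicate 2 it was 0.11. The cause was not tested. At 1.5-fold, 2 members differed between pools, Bmf and Trp73, against 0 at 2-fold, and 7.19% of all genes did so. The median share of the top transcript, 69.7%, was 70.5% without replicate 1 and 70.7% without replicate 2. The count of 0 members at 2-fold held with size factors from DESeq2, total counts, ERCC totals, other count minimums and M4. Over all genes 841 differed, against 1090 with ERCC totals, 208 at 50 counts and 1429 at 1.5-fold. Between annotations 0 members differed 1.5-fold or by expected counts. No paired analysis was possible because both libraries belong to 1 group. Depth limits Hrk, Casp1, Casp12, Bik, Trp73 and the transcript split of Bak1.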
